A study of Mus musculus with 4 samples.

Results

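The 39 genes described here carry the leptin, insulin, mTOR and AMPK signals by which cells sense hormones and nutrients. They were chosen by name: 3 receptors, 5 adaptors including an exchange factor, 4 subunits of phosphoinositide 3-kinase (PI3K), 9 signalling kinases, 4 genes of the mTOR complexes and their activator, 6 AMPK subunits, 5 inhibitors and 3 transcription factors. They were taken from 21779 protein-coding genes on the assembled chromosomes. All 39 were found in the RefSeq gene table of GRCm38.p6. RUVBL2, an AAA+ ATPase of chromatin remodelling and chaperone complexes, was mapped by chromatin immunoprecipitation and sequencing (ChIP-seq). The tissue was the hypothalamus of wild-type male C57BL/J mice aged 8 weeks, untreated as far as the labels say. The series has 2 RUVBL2 ChIP libraries and 2 input libraries, and the peak lists of the 2 ChIP libraries, called one library at a time, are the data used here. The labels do not say whether replicates 1 and 2 came from separate animals or pools, so their agreement may be technical in part, and chromatin of all hypothalamic cell types was mixed.

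Leptin binds its receptor LEPR, which signals through the kinase JAK2 and the transcription factor STAT3, and SOCS3 and the phosphatase PTPN1 end that signal. Insulin and IGF1 receptors signal through the IRS adaptors to PI3K, PDPK1 and AKT, which restrain GSK3 and FOXO proteins. AKT also relieves the TSC1 and TSC2 brake on RHEB, the activator of mTOR complex 1. AMPK, switched on by STK11 when energy is low, acts against mTOR. In the hypothalamus these pathways let neurons read body fat, blood glucose and feeding state.

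The promoters that the results turn on are printed first. They are RefSeq windows of GRCm38.p6 with 250 bases before and 50 after a transcription start, 5′ to 3′ along the gene, for the 6 members whose window overlapped the best-ranked regions found in both libraries, and for the first 2 members, by role, with no peak in either library. Capitals mark letters of any of 11 motifs searched on both strands: CCAAT (bound by NF-Y), GGGCGG (SP and KLF factors), CCGGAA (ETS factors), CACGTG (E-box), TGACGT (ATF and CREB), TGCGCA (part of the NRF1 site), AAGATGGC (YY1), TATAAA, TTCCNGGAA (STAT) and GTAAACA (FOXO), with a palindromic CG-rich promoter element as the last. Overlapping matches join into 1 run of capitals. The windows of Tsc1 (chr2:28640983-28641282, plus strand), Sh2b1 (chr7:126475081-126475380, minus strand), Irs2 (chr8:11008880-11009179, minus strand), Pdpk1 (chr17:24141545-24141844, minus strand), Prkag2 (chr5:24908460-24908759, minus strand) and Rictor (chr15:6708131-6708430, plus strand) overlapped a region found in both libraries. Those of Lepr (chr4:101717157-101717456, plus strand) and Pik3cb (chr9:99140162-99140461, minus strand) had no peak.
Tsc1: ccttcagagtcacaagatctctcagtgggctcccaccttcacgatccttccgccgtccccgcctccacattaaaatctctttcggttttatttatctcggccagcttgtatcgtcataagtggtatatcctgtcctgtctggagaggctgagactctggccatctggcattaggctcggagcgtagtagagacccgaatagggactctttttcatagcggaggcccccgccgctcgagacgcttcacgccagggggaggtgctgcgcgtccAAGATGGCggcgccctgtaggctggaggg
Sh2b1: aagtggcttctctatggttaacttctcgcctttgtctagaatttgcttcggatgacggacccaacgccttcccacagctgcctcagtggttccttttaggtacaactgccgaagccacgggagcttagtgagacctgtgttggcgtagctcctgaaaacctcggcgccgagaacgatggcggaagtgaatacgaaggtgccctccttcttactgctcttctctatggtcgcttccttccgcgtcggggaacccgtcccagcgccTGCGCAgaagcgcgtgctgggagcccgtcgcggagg
Irs2: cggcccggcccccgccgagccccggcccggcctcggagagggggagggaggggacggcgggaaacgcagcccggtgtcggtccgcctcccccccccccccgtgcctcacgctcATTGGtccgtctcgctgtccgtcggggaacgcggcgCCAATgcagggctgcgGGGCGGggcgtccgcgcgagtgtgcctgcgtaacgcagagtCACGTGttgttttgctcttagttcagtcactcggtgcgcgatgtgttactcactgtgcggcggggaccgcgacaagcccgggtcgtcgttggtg
Pdpk1: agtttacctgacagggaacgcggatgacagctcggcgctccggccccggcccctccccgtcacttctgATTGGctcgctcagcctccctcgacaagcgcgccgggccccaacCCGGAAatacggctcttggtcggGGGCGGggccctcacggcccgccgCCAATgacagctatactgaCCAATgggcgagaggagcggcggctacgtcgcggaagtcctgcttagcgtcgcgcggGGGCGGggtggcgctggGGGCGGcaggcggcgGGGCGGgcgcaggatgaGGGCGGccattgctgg
Prkag2: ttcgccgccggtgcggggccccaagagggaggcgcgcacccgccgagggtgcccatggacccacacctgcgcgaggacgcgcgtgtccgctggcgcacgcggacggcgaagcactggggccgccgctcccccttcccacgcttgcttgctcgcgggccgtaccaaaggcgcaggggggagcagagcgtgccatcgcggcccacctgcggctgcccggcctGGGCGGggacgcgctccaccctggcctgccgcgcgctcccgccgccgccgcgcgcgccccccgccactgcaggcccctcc
Rictor: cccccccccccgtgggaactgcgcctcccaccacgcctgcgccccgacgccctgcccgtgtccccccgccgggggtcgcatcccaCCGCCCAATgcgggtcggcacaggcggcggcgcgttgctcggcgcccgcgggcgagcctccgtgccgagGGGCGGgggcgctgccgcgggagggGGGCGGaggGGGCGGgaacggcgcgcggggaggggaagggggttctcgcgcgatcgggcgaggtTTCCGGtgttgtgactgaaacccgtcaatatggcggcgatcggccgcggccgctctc
Lepr: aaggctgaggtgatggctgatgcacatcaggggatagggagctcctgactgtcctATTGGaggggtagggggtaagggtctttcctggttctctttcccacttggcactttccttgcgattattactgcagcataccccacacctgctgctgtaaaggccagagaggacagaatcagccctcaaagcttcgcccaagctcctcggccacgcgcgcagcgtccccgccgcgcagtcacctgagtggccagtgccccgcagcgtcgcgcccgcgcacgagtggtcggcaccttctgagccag
Pik3cb: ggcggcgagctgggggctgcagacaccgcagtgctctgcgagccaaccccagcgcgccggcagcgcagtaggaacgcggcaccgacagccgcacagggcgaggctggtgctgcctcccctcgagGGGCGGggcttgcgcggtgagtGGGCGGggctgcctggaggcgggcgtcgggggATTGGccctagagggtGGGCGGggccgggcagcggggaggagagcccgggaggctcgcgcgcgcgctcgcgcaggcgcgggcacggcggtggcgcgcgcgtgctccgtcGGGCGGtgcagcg

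Replicate 1 listed 3943 peaks and replicate 2 listed 6403, with median summit pileups of 16 and 22 reads and median folds of 4.93 and 4.74. The fold is the authors' value of enrichment over estimated background at the highest point of a peak. The range given with a fold is its exact Poisson 95% interval, from the summit pileup at a fixed background. The intervals cover counting error only, since amplified reads are not independent molecules. Peaks of the 2 lists that overlapped by at least 1 bp were joined into 3111 shared regions, and a region was counted for a gene when its midpoint lay in the gene or within 3 kb of either end. Markers of cell types say little in such data. The 35 looked at mark hypothalamic neurons, other neurons, glia, vessels, ependyma, pituitary and liver. A shared region was held by 1 of 6 hypothalamic neuron markers and 1 of 5 general neuron markers, and by none of the others. The share over protein-coding genes was 17.2%, and sets this small do not separate the types.

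RUVBL2 was found in both libraries at 18 of the 39 genes (46.2%), with 22 shared regions in all. The background was 17.2% of protein-coding genes. In replicate 1 alone 22 members (56.4%) held a peak, against 20.9% of protein-coding genes, and in replicate 2 alone 28 (71.8%) did, against 32.6%. Within 3 kb of a gene end, a shared region was found at 17 members (43.6%), against 16% of protein-coding genes. A further 2 members had a peak in each library without overlap. With these, 20 of the 39 members had a peak in each library, overlapping or not, against 17.8% of protein-coding genes. Another 8 had one in replicate 2 only, 2 in replicate 1 only, and 9 had none. A peak in at least 1 library was thus found at 30 members, against 35.8% of protein-coding genes. The list was chosen by function, with earlier results of these data known, and not at random. These shares therefore describe the list only, and no test was made. The background also rose with the CG content of promoters, as described below. It reached 39.3% in the richest class, where 9 of 19 members held a shared region.

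The shares moved with the strength asked of a peak. With peaks of a −log10 q of at least 5 in each list, 7 members held a shared region, against 8.5% of protein-coding genes. With the best 1000 peaks of each list, only Tsc1 and Sh2b1 did, that is 2 of 39 against 3.08%. Most member regions were of ordinary height. Their median fold was 4.75 in replicate 1 and 4.86 in replicate 2, beside 5.05 and 5.35 over all shared regions, and their median pileup was 16 and 23 reads, beside 17 and 25.

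**Figure D1:**
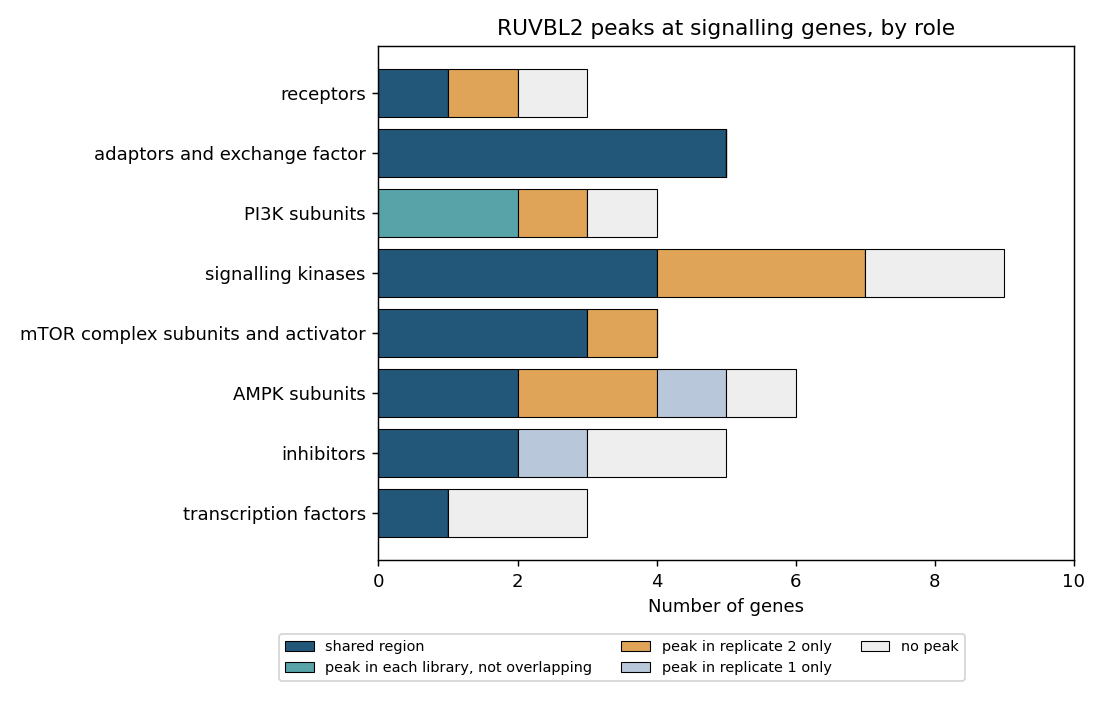
Number of signalling genes in each role (horizontal axis, genes), split by where peaks were found in the gene or within 3 kb of its ends. All 5 adaptors had a shared region and none of the 4 PI3K subunits did, where 17.2% of protein-coding genes had one.

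Among the receptors, RUVBL2 was found in both libraries at Igf1r only. Igf1r encodes the receptor for insulin-like growth factor 1. Its region at the start (chr7:67950837-67952298) had a fold of 4.32 (2.44 to 7.16) in replicate 1, while replicate 2 gave 8.23 (5.602 to 11.7). The 2 summits lay 658 bp apart, the widest gap among the member regions, at 169 and 827 bp upstream of the start. A further Igf1r region (chr7:68129044-68129979) lay deep in the gene, 177217 bp past the start by its replicate 1 summit, with folds of 4.93 (2.90 to 7.93) and 7.11 (4.81 to 10.2). Insr, the insulin receptor, had a peak at a gene end in replicate 2 only, with a fold of 4.41 (2.67 to 6.92, 17 reads). Lepr, the leptin receptor, had none: the nearest peak lay 360586 bp away in replicate 1 and 360086 bp away in replicate 2.

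All 5 adaptors held a shared region, where 17.2% of protein-coding genes did, and the difference from the other roles was not tested. With a −log10 q of at least 5 in each list, only Irs2 and Sh2b1 of these kept one. Among 14 other receptors and adaptors of the pathways, 3 held a shared region. Irs1 and Irs2 link the insulin and IGF1 receptors to PI3K. At Irs2 (chr8:11009121-11009894) the folds were 6.78 (4.31 to 10.2) and 6.02 (4.01 to 8.71), with summits 479 and 445 bp upstream of the start. The region itself lay upstream of the start and overlapped only the first part of the printed window, with both summits outside it. At Irs1 (chr1:82290327-82291933), the widest member region with 1607 bp, the folds were 4.62 (2.67 to 7.55) and 4.12 (2.49 to 6.46). Its summits fell on either side of the start, 502 bp apart, and with summits required to lie within 250 bp Irs1 was no longer counted.

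Sh2b1, an adaptor that strengthens leptin and insulin signalling through JAK2, had the second-best member region by the worse of its 2 ranks. Replicate 1 gave a fold of 6.15 (3.83 to 9.43) at chr7:126475039-126475779 and replicate 2 gave 7.66 (5.45 to 10.5), ranking 875 of 3943 and 399 of 6403. Grb2 and Sos1, the adaptor and the nucleotide exchange factor that hand the signal to RAS, had lower ones. Grb2 had folds of 4.56 (2.68 to 7.33) and 4.83 (3.01 to 7.41) at chr11:115708190-115708704. That region covered the upper end of the gene, with summits 8550 and 8457 bp upstream of the nearest start in the promoter table. Sos1 had folds of 4.32 (2.44 to 7.16) and 4.70 (2.92 to 7.21) at chr17:80480140-80480646, over its start.

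No PI3K subunit held a shared region, where 17.2% of protein-coding genes did. A peak in at least 1 library was found at 3 of the 4, against 35.8% of protein-coding genes. At Pik3ca, which encodes the catalytic subunit p110α, replicate 1 listed a peak 637 bp past the start (fold 4.93, 2.90 to 7.93) and replicate 2 one 338 bp before it (3.98, 2.41 to 6.24). The intervals of these peaks were 147 bp apart. The peaks of Pik3r1, which encodes the regulatory subunit p85α, did not overlap either: replicate 1 had a peak with a fold of 3.70 (2.00 to 6.37) before the start, and replicate 2 one with 4.11 (2.37 to 6.72) past it, 419 bp away. Pik3r2 had a peak in replicate 2 only, with a fold of 6.33 (4.11 to 9.37), and the gene Mast3 ends within 3 kb of it. Pik3cb had none.

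Of the 9 signalling kinases, 4 held a shared region, where 17.2% of protein-coding genes did. Jak2, which relays the leptin signal, had folds of 6.70 (4.26 to 10.1) and 4.12 (2.49 to 6.46) at chr19:29251133-29251895, a region that covered its start, with summits 413 and 568 bp upstream. Stk11, the kinase that activates AMPK, had the second-highest fold of the member regions in replicate 1, 7.70 (5.24 to 10.95), at chr10:80115728-80116184, and 4.11 (2.67 to 6.08) in replicate 2. Its summits were 2 bp apart, 101 and 99 bp past the start. Pdpk1, which phosphorylates AKT, had a region over its downstream start (chr17:24141184-24142023), with folds of 5.24 (3.13 to 8.32) and 6.12 (4.19 to 8.65), and none over the upstream start of the promoter table. Its other region (chr17:24072968-24073655), with folds of 4.60 and 4.105, lay at the far end of the gene and nearer the end of Kctd5, 174 bp from it.

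Gsk3b, a kinase that AKT inhibits, held a region on each side of its start, with summits 260 and 435 bp before it in one (chr16:38088258-38088811, folds 4.37 and 3.79) and 772 and 833 bp past it in the other (chr16:38089558-38090019, folds 4.88 and 3.83). They ranked 2320 and 1528 of 3943 in replicate 1, and 5880 and 5044 of 6403 in replicate 2. Akt2, Rps6kb1 and Rps6kb2 had a peak in replicate 2 only, with folds of 4.45 (2.80 to 6.76), 3.35 (2.18 to 4.96) and 2.99 (1.94 to 4.42). Ends of Tubd1 and Carns1 lay within 3 kb of the Rps6kb1 and Rps6kb2 peaks. Akt1 and Gsk3a had no peak, the nearest lying 18714 bp and 8769 bp away.

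The scaffolds of both mTOR complexes held a shared region over their starts. Rptor, of complex 1, had 4.62 (2.67 to 7.55) and 7.41 (5.32 to 10.1) at chr11:119602806-119603456. Rictor, of complex 2, had 5.24 (3.13 to 8.32) and 6.03 (3.84 to 9.07) at chr15:6707456-6708680. Mlst8, a subunit of both complexes, was counted only at the edge of the window: its region (chr17:24470277-24470913, folds 3.97 and 3.82) had its midpoint 2955 bp from the gene and 169 bp from the end of Pgp. Rheb, which switches on complex 1, had a peak ranked 1166 of 6403 in replicate 2 (fold 6.87, 4.58 to 9.95, 26 reads) and none in replicate 1.

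AMPK is built of a catalytic, a beta and a gamma subunit. Of its 6 genes, 2 held a shared region, where 17.2% of protein-coding genes did. Prkaa2, a catalytic subunit, had folds of 4.93 (2.90 to 7.93) and 3.98 (2.41 to 6.24) over its start (chr4:105109409-105110388). Prkag2, a gamma subunit, had 4.51 (2.77 to 6.98) and 6.31 (4.06 to 9.41) at chr5:24908204-24908727. The Prkag2 region lay over the most downstream of its 3 starts in the promoter table, 45731 bp from the nearer gene end, and the other starts had no peak. Single-library peaks were found at Prkab2 (replicate 1, fold 6.47, 4.07 to 9.83), Prkag1 (replicate 2, 5.12, 3.18 to 7.85) and Prkaa1 (replicate 2, 3.15, 1.88 to 4.997). The Prkag1 peak lay within 3 kb of an end of Kmt2d. Prkab1 had none, the nearest peak lying 360634 bp away in replicate 2.

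**Figure D2:**
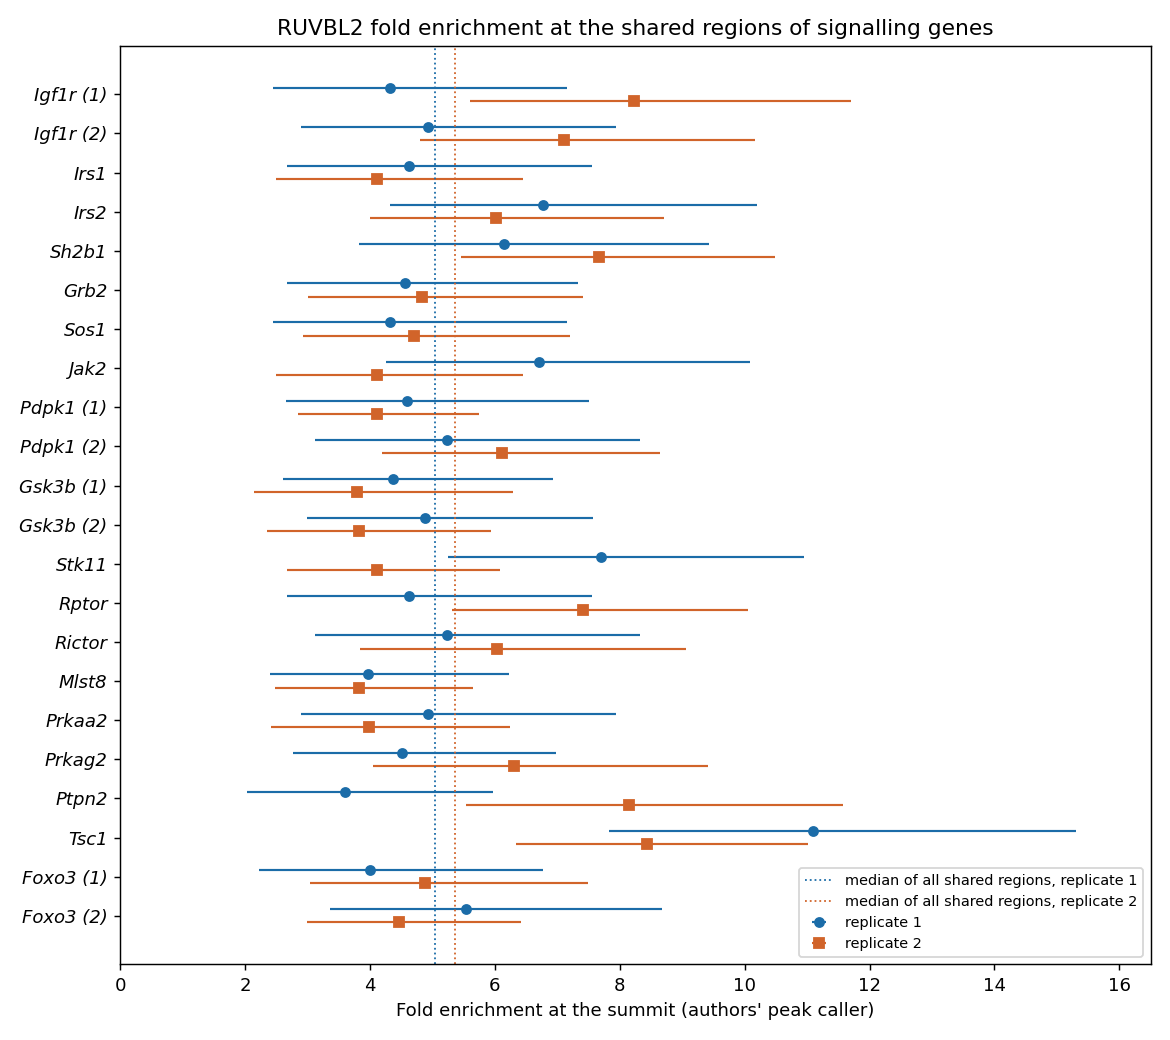
Fold enrichment (horizontal axis) at each of the 22 shared regions of signalling genes in replicates 1 and 2, with exact Poisson 95% intervals of the summit pileup; genes with 2 regions are numbered by coordinate. Tsc1 had the highest fold in both libraries, and at all 22 regions the intervals of the libraries overlapped. The intervals are wide at these pileups, and the share that overlap over all shared regions was not taken.

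Of the 5 inhibitors, Tsc1 had the strongest member region in both libraries. Tsc1 encodes hamartin, which with TSC2 holds back RHEB and mTOR complex 1. Its folds at chr2:28640737-28641892 were 11.1 (7.82 to 15.3, 35 reads) in replicate 1 and 8.44 (6.34 to 11.02, 52 reads) in replicate 2, ranking 33 of 3943 and 144 of 6403. The summits lay 33 bp past and 29 bp before the start, at bases 284 and 222 of the printed window, whose only motif match was AAGATGGC from base 272. Its partner Tsc2 had no peak, the nearest lying 17389 bp away in replicate 2.

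Ptpn2, a phosphatase that dampens JAK signalling, had folds of 3.59 (2.03 to 5.96) and 8.14 (5.54 to 11.6) at chr18:67724038-67724648. The 2 intervals overlapped only narrowly, and the peaks ranked 3615 of 3943 in replicate 1 and 612 of 6403 in replicate 2. Ptpn1, which dephosphorylates the insulin receptor and JAK2, had a peak in replicate 1 only, with a fold of 3.82 (2.40 to 5.80). Socs3, the feedback inhibitor induced by leptin, had none, the nearest peak lying 16634 bp away.

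Among the transcription factors, Foxo3, which AKT keeps out of the nucleus, held 2 shared regions. One lay over the start (chr10:42276428-42277077, folds 4.01, 2.22 to 6.77, and 4.89, 3.04 to 7.496). The other lay upstream, with summits 1559 and 1426 bp before the start (chr10:42277425-42278519), with folds of 5.54 (3.35 to 8.68) and 4.46 (2.99 to 6.42). Foxo1, the other FOXO member, and Stat3, the factor that leptin activates, had no peak. Their nearest peaks lay 163544 bp and 36196 bp away.

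Close relatives were compared by whether a shared region was found, as it was at 46.2% of members and 17.2% of protein-coding genes. Of 12 pairs of related members, 1 pair (Irs1 and Irs2) held a shared region at both genes, 6 pairs at 1 gene (Igf1r not Insr, Gsk3b not Gsk3a, Prkaa2 not Prkaa1, Prkag2 not Prkag1, Ptpn2 not Ptpn1, Foxo3 not Foxo1) and 5 at neither. Whether relatives differed more often than other pairs of genes was not tested, and a missing peak does not show that binding was absent. At member shared regions, the lowest folds were 3.59 in replicate 1 and 3.79 in replicate 2, with medians of 4.75 and 4.86. At the lowest backgrounds, the lowest listed fold was 3.33 in replicate 1 (10 reads) and 3.21 in replicate 2 (11 reads). Of the 10 members with a peak in 1 library only, Pik3r2, Rheb and Prkab2 had a lower fold bound above that lowest fold of the other list. For the remaining 7, the bound lay below it.

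**Figure D3:**
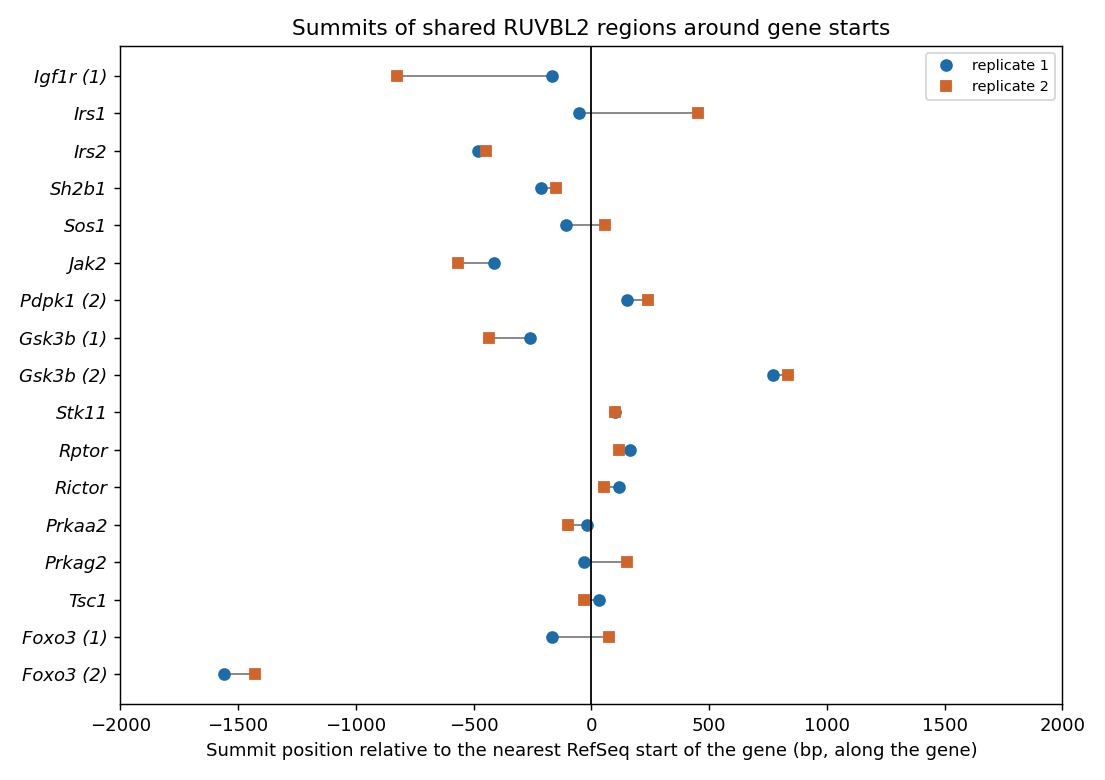
Position of the summits of shared regions within 2 kb of the nearest RefSeq start of the gene (horizontal axis, bp along the gene, upstream negative), with a line joining the libraries. Most summits lay within 500 bp of a start, on both sides of it.

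Most regions of members lay near a start. This share was not taken over all shared regions, so it is not shown to be particular to members. Of protein-coding genes, 17.2% held a shared region and 16% held one within 3 kb of a gene end. For 21 of the 22 regions the gene had a start in the promoter table. The replicate 1 summit lay within 500 bp of a start in 15 of these and within 1 kb in 16, and the replicate 2 summit in 13 and 16. Within 1 kb, 10 summits of replicate 1 lay upstream and 6 downstream, while in replicate 2 the counts were 7 and 9. The regions at the far end of Pdpk1, beyond Mlst8 and at Grb2 lay near a gene end but more than 2 kb from that gene's starts in the table. Those of Pdpk1 and Mlst8 lay closer to a neighbouring gene (Kctd5 and Pgp), while for the one at Grb2 the nearest end was its own. Summits of the 2 libraries lay a median of 83 bp apart at the member regions, beside 93 bp over all shared regions.

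**Figure D4:**
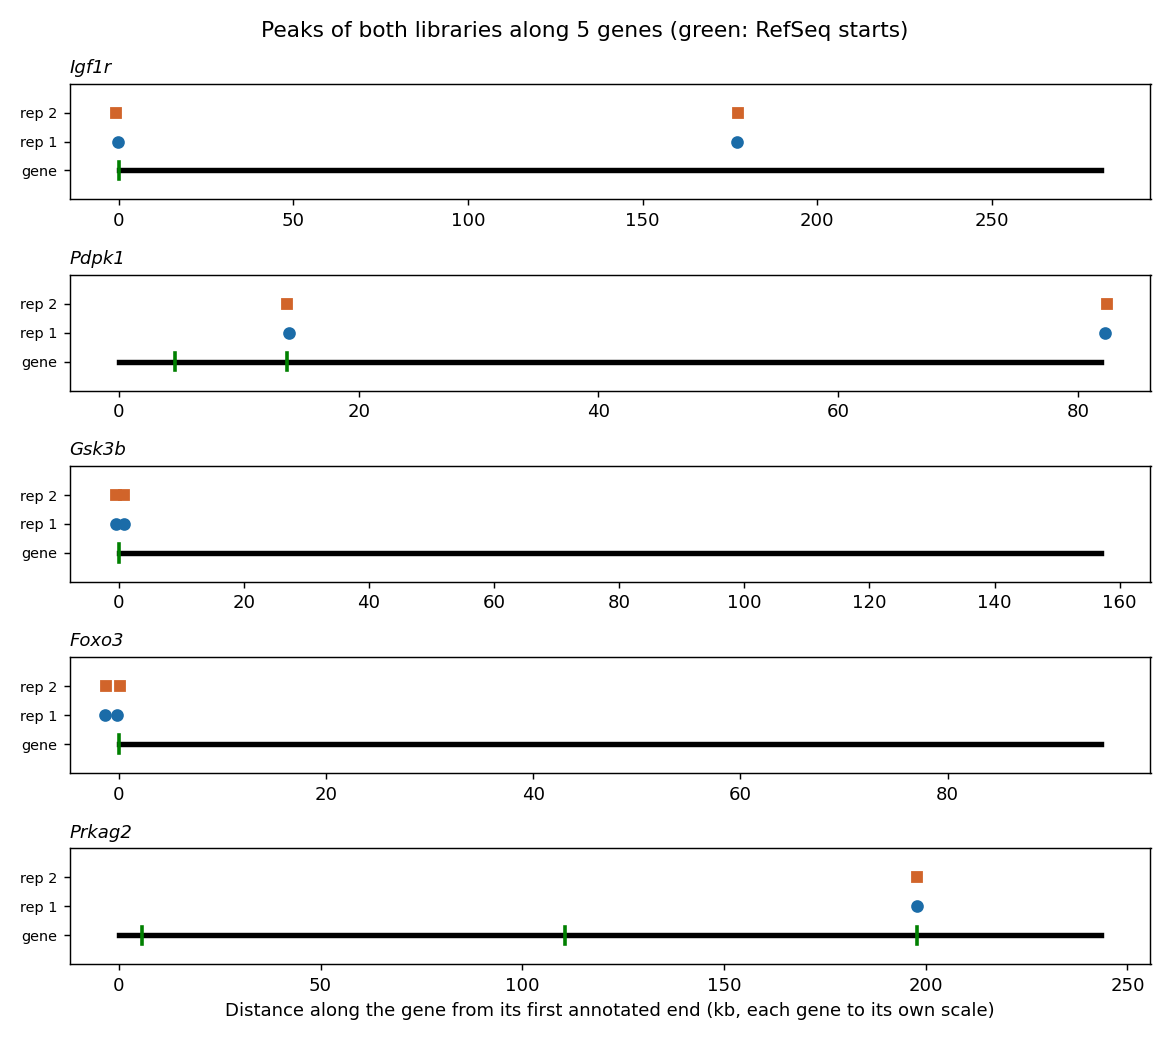
Peaks of replicate 1 (circles) and replicate 2 (squares) along Igf1r, Pdpk1, Gsk3b, Foxo3 and Prkag2, drawn from the upstream end of each gene (horizontal axis, kb); green marks are RefSeq starts. Igf1r shows its second region deep in the gene, and Pdpk1 and Prkag2 show a region at a downstream start.

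In all, 4 members (Igf1r, Pdpk1, Gsk3b and Foxo3) held 2 shared regions, against 0.647% of protein-coding genes with 2 or more. The far-end Pdpk1 region lay outside the gene and nearer Kctd5, and the regions of Gsk3b and of Foxo3 lay around a single start of each gene. Member genes were long, with a median of 52789 bp against 17217 bp for protein-coding genes. By length, 19.98% of genes over 10 and up to 50 kb held a shared region, 24.8% of those up to 100 kb and 17.96% of longer ones, where 2 of 12, 10 of 15 and 4 of 6 members did. Among genes of up to 10 kb, 11.3% did, and 2 of 6 members.

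Promoters of the members were rich in CG dinucleotides, a C followed by a G, which is concentrated in the CpG islands of many broadly used promoters. The 15 member windows that overlapped a shared region held a median of 35 CG dinucleotides in 300 bases and the 32 other member windows 18.5, beside 13 over the 21263 windows of protein-coding genes and 27 over the 2926 of these that overlapped one. The background rose with this measure. Of protein-coding genes whose richest window held 30 or more CG dinucleotides, 39.3% had a shared region, and of the 19 such members 9 did. With 20 to 29 the share was 28.9% and 5 of 8 members, with 10 to 19 it was 16.7% and 2 of 8, and below 10 it was 3.05% and the single member Grb2, whose region lay outside its windows. In the class that holds most members, the background was therefore 39.3% and not 17.2%. CG content did not by itself separate members: Pik3cb (44) and Akt1 (42) had no peak, while Rptor (13) and Tsc1 (20) had a region.

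**Figure D5:**
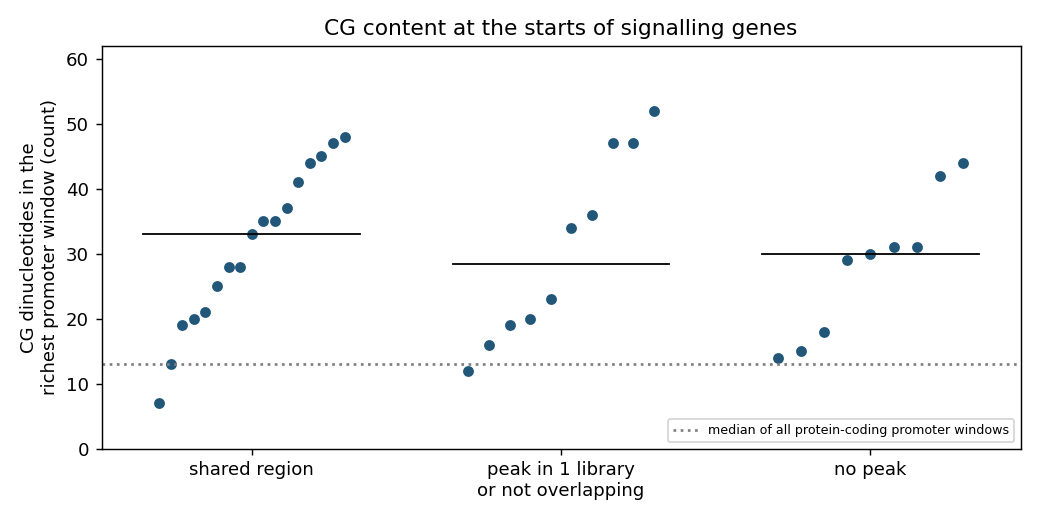
CG dinucleotides in the richest promoter window of each member (vertical axis, count in 300 bases), by where peaks were found; bars are medians. The groups overlap, with medians of 33, 28.5 and 30.

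Motif letters are given as a description of the windows. For each motif, the member windows that overlapped a shared region were set beside all 3254 windows of the table that did so, and the other member windows beside the windows of protein-coding genes. Percentages in brackets below are the shares of these comparison windows, not of the member windows. GGGCGG was in 10 of the 15 member windows with a region, beside 72.7% of all windows with one, and in 17 of the 32 others, beside 46.2%. CCAAT was in 5 of 15 (30.9%) and 13 of 32 (38.2%), and CCGGAA in 4 of 15 (35.99%) and 7 of 32 (18.7%). AAGATGGC was in 2 of 15, those of Tsc1 and Stk11 (9.56%), and in 1 of 32 (3.05%). CACGTG was in 2 (10.5%) and 1 (7.84%), TGCGCA in 1 (18.3%) and 5 (9.74%), and TGACGT in 0 (15.3%) and 1 (8.49%). TATAAA was in 1 (3.87%) and 2 (12.6%), and GTAAACA in 1 (1.84%) and 1 (3.01%). TTCCNGGAA (1.32% and 1.17%) and the palindromic element (2.27% and 0.673%) were in no member window. Of the printed windows, that of Pdpk1 had 5 matches of GGGCGG and 3 of CCAAT, and that of Pik3cb, with no peak, 4 and 1.

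Of 100 other genes of the same pathways, 25 held a shared region, where 17.2% of protein-coding genes did. The difference from the members was not tested. By branch the counts were 6 of 14 in the RAS branch, 5 of 13 in the PI3K and AKT branch, 8 of 32 in the mTOR branch, 3 of 14 other receptors and adaptors, 2 of 14 in the AMPK branch, 1 of 8 in the JAK and STAT branch and 0 of 5 ligands. Among the best-ranked, Spred1, which restrains RAS signalling, had folds of 6.47 (4.07 to 9.83) and 11.4 (8.41 to 15.2), and its relative Spred2 had 5.24 and 5.95. Akt1s1, an mTOR complex 1 subunit that inhibits it, had 5.88 and 9.31, and Rps6, the ribosomal target of S6 kinase, 7.45 and 5.65. Regions were also found at Sh2b3 (7.13 and 6.70), Rasa1 (4.88 and 6.26) and the adaptor Crk (4.41 and 7.74).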

How the data were processed

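RUVBL2 ChIP and input DNA of mouse hypothalamus was read as pairs of 150 bp after 15 cycles of amplification, per the labels' protocols. The submitters' processing notes name Trimmomatic 0.33, Bowtie2 2.3.4.1, MACS2 2.1.0, ChIPseeker and GRCm38; their settings and the control used are not given in these sources. Input values were not analysed here. In the second list, peaks are called Hyp3 where the sample title has Hyp2; files were matched to samples by GEO's record. The authors deposited, for each peak, a fold (ratio) over background, −log10 p and −log10 q values and a score that is the −log10 q times 10 with decimals dropped. These are peak values of lists of different depth. Ranks were taken within a list, and folds of both lists are set side by side as a description.

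Summit pileups were solved from fold and −log10 p with 1 added to pileup and background (Python 3.11.15, scipy 1.17.1). Whole-number pileups matched within a relative tolerance of 0.0001 for 100% of replicate 1 peaks and 99.98% of replicate 2 peaks, and were recovered exactly for 100% of 500 simulated peaks for each replicate. Depth beyond the pileups is unknown. Genes and promoters came from RefSeq tables of GRCm38.p6, leaving out rows placed in the unsequenced first 3 Mb of the chromosomes (Y excepted). Starts and strand were found for 36 of 39 members, in 47 windows. Exons and introns were not assigned. The members and lists, the pairs and the classes of length and CG content were chosen with earlier results of these data known. All members are reported; of the other pathway genes, those among the 10 with the best worse rank by −log10 p, some of which are not reported here. With 2 libraries of 1 group, no comparison between conditions exists, and no test was run. The alternatives tried were the overlap, the peak threshold, the window, the placing of a region and each library alone.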

Additional observations from a re-analysis of the deposited data

How the results depend on the processing

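Of 86 counts of members under an alternative, 68 stayed within 1.5 times the value reported. The peak threshold moved most of the others. With a −log10 q of at least 5, shared regions were found at 7 members (18 reported), at 6 within reach of a gene end (17), at 2 receptors and adaptors (6), 3 kinases and kinase-complex subunits (9) and 1 inhibitor (2), and single peaks at 10 members in replicate 1 (22) and 18 in replicate 2 (28). With the best 1000 peaks of each list, the same counts were 2, 2, 1, 0, 1, 6 and 5, and 0 transcription factors held a region (1 reported). Each library alone gave 22 to 28 members in the gene or near it, 21 to 27 near a gene end, 12 to 18 kinases and kinase-complex subunits, 6 to 7 receptors and adaptors, 2 to 3 inhibitors and 1 transcription factor, the higher values from replicate 2 except for the inhibitors. Fewer peaks enter under a stricter threshold and more with 1 library, by construction. The share of protein-coding genes holding a shared region fell too, from 17.2% to 8.5% under the q limit and 3.08% under the rank limit. Peaks of replicate 1 alone were held by 20.9% of protein-coding genes, and those of replicate 2 alone by 32.6%. No such share was taken for single-library peaks under either limit, or near a gene end in these settings. Counting peaks of both libraries whether or not they overlapped, an alternative chosen after seeing the data, gave 20 members, adding Pik3ca and Pik3r1. Mlst8 was lost with a window of 1 kb, with the replicate 2 summit and with the nearest gene end only. Of the 18 members with a shared region, Tsc1 and Sh2b1 held it under every alternative run. No paired analysis was possible because peaks are listed for the ChIP libraries only and no test compares groups. Low pileups limit what a missing peak can show.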
